A study of Homo sapiens with 6 samples.

Results

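The genes described here carry out catecholamine synthesis, storage, re-uptake and breakdown: TH, DDC, DBH, SLC6A2, SLC18A1, SLC18A2, CYB561, MAOA and GCH1. They were chosen by name, as 9 symbols of the 36601 genes in the deposited matrices, and all 9 passed the low-count filter and were tested. Their levels were measured by Seq-Well S3 single-cell RNA sequencing, in which cells are paired with barcoded beads in small wells, in the established neuroblastoma cell line SK-N-BE(2)-C, of human origin. The 6 libraries form 3 groups of 2 by the treatment on the label: DMSO, the solvent; TSA, the usual short name of trichostatin A, which blocks histone deacetylase (HDAC) enzymes; and E6R. By the series title, the question is how little an HDAC complex inhibitor that is not an enzyme inhibitor changes the transcriptome. What E6R is chemically, and the dose and time of either compound, is not given in the sources used here. All 3 groups are 1 cell line, and nothing in the labels says that the replicates were separate cultures, so p-values measure only the spread between these libraries.

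Catecholamines are made from tyrosine. TH, tyrosine hydroxylase, makes L-DOPA and is the rate-limiting enzyme; DDC turns L-DOPA into dopamine; and DBH turns dopamine into noradrenaline inside vesicles. GCH1 starts the synthesis of tetrahydrobiopterin, the cofactor of TH, and CYB561 passes electrons across the vesicle membrane to regenerate the ascorbate that DBH consumes. SLC18A1 and SLC18A2 (VMAT1 and VMAT2) load the amines into vesicles, SLC6A2 (the noradrenaline transporter) takes noradrenaline back into the cell, and MAOA oxidises the amines at the mitochondrion. Neuroblastoma arises from the sympathoadrenal lineage, which has this pathway, and uptake of labelled MIBG through SLC6A2 is used to image and treat the tumour.

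Barcodes with at least 500 genes and at most 20% of unique molecular identifiers (UMIs) from mitochondrial genes were kept as cells, 17589 in all and 1861 to 3946 per library. Their UMIs summed to between 4206366 and 26180262 per library, with a median of 1054 to 1880 UMIs per cell, and the DMSO sums were the shallowest. Any pair of libraries shared 11 to 58 cell barcodes, at most 2.11% of the smaller library, and without these cells every called member kept its call. The largest 1% of cells held 22.9% of the UMIs of E6R replicate 2. The 9 sympathoadrenal markers listed (HAND2 among them) were above 0 in every library, with summed levels of 1434 to 2308 CPM (counts scaled to a common library size). Lists of Schwann, immune and erythroid markers summed to at most 21.2, 17.2 and 3.22 CPM in any library. The 5 epithelial markers summed to 90.1 and 86.6 CPM under DMSO, 40.0 and 25.4 under TSA (1 marker at 0 in TSA replicate 1), and 106 and 112 under E6R. The mitochondrial share of the UMI sums was 1.51% to 1.55% under E6R and 5.83% to 9.71% in the other 4 libraries. Of the epithelial markers, KRT19 was lowest under TSA, at 26.3 and 73.8 CPM under DMSO, 10.0 and 9.40 under TSA, and 42.2 and 94.0 under E6R. KRT18 differed more between replicates, at 42.5 and 3.63, 27.2 and 9.84, and 58.8 and 14.15 CPM in the same order. The epithelial sum and the mitochondrial share both move with treatment, and their part in the results was not tested.

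Under TSA, genes at several steps of the pathway were lower. Of the 9 members, SLC6A2, CYB561, SLC18A1 and DDC fell under TSA relative to DMSO by edgeR's quasi-likelihood test with Benjamini-Hochberg adjustment over 16763 genes at 0.05, and none rose. This is 4 of 9 called lower, where 13.5% of all genes tested were called lower and 29.7% were called in either direction. Both TSA libraries lay below both DMSO libraries for 6 members, among them TH and DBH, a pattern seen in 34.6% of all genes tested. The median log2 fold change of the members was -1.53, against -0.01 for all genes tested. With E6R against DMSO, edgeR called 0 members, as it called 0% of all genes tested; 3 members (DDC, SLC18A1 and MAOA) had an unadjusted p under 0.05 and both E6R libraries above both DMSO libraries. An unadjusted p under 0.05 was seen in 17.4% of all genes tested, and that non-overlap upwards in 24.6%. With E6R against TSA, 5 members were called higher (the same 4 and TH) where 18.7% of all genes tested were called higher, and the median was 2.31 against -0.09. The comparisons share libraries, so their values stand side by side here and are not independent of each other.

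**Figure D1:**
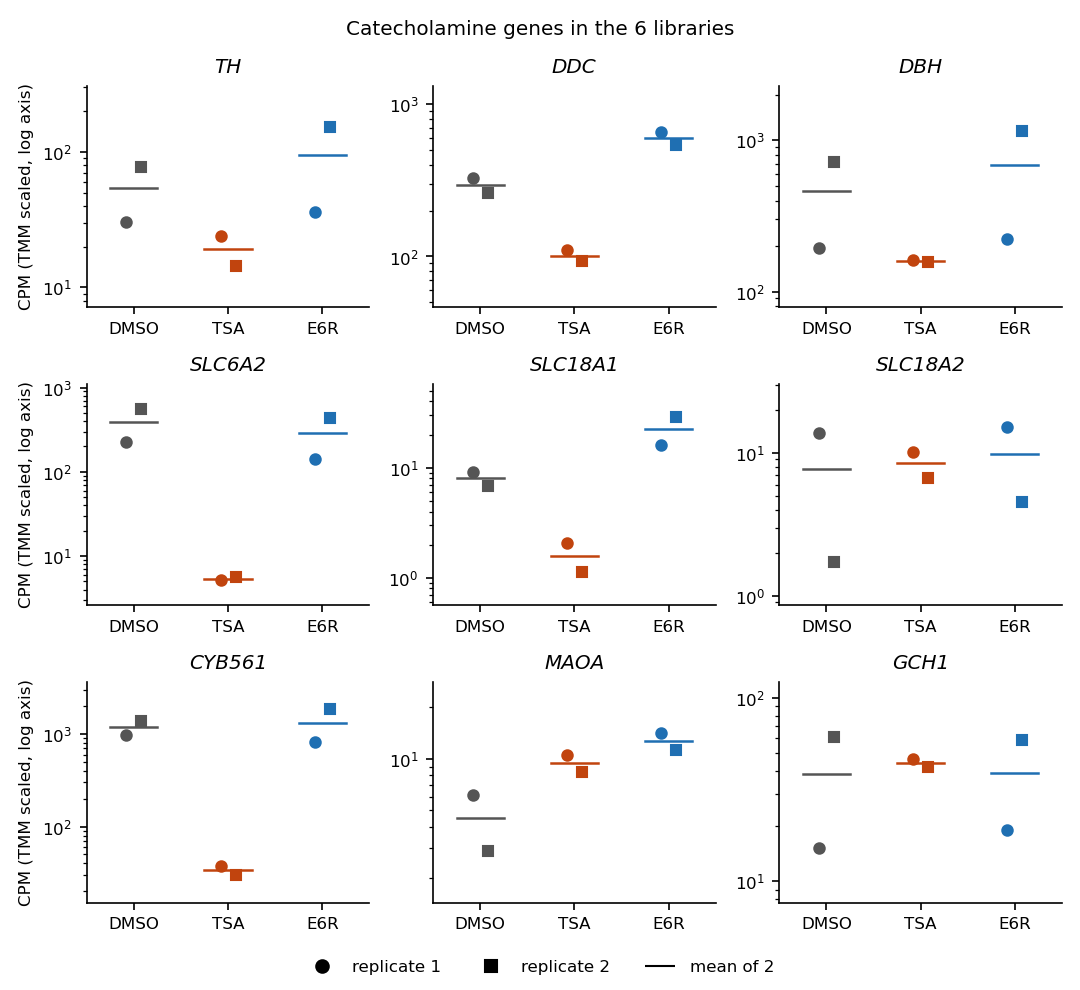
CPM (TMM scaled, log axes that differ between panels) of the 9 members in each library; circles are replicate 1, squares replicate 2, and lines the mean of the 2. The TSA libraries sit far below the others for SLC6A2 (5.24 and 5.57 CPM) and CYB561 (37.2 and 30.04 CPM), while the DMSO and E6R replicates of DBH, TH and GCH1 lie apart from each other.

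Levels below are TMM-scaled CPM from UMI sums over cells, and replicate 1 is given before replicate 2. DDC (ENSG00000132437; GRCh38, chr7:50458436-50565457, minus strand, protein coding) had, under DMSO and under E6R, the closest replicates of the 3 synthesis enzymes. It stood at 329 and 262 CPM under DMSO, 110 and 92.8 under TSA, and 660 and 540 under E6R. No 2 groups overlapped, with E6R highest and TSA lowest. The log2 fold change was -1.55 (SE 0.223) for TSA against DMSO, with an edgeR adjusted p of 0.00287, and 2.57 (SE 0.23) for E6R against TSA, with an edgeR adjusted p of 0.000457. E6R against DMSO gave 1.02 (95% interval 0.51 to 1.53), a 2.03-fold higher fitted level, and edgeR's adjusted p was 0.205. DESeq2 called that difference, with an adjusted p of 0.00352. DDC overlaps FIGNL1 on the same strand and DDC-AS1 on the other, and how the authors' counting assigned shared reads is not given in the sources used here.

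TH (ENSG00000180176; chr11:2163929-2171877, minus strand, protein coding), the rate-limiting enzyme, was at 30.4 and 77.8 CPM under DMSO, 23.9 and 14.3 under TSA, and 35.8 and 153 under E6R. TSA was lowest without overlap, but the DMSO and E6R replicates spread widely and overlapped. The TSA difference from DMSO, -1.50 on the log2 scale (SE 0.683), did not pass in edgeR (adjusted p = 0.131), and without DMSO replicate 2 it was -0.74. It passed with no filter on low counts (2.18e-07) and with cells thinned to 1000 UMIs (-2.00, adjusted p = 0.0375). It also passed where E6R libraries were left out of the shared estimate of spread: the edgeR adjusted p was 0.0168 without E6R replicate 1, 0.018 without E6R replicate 2, and 0.0219 with DMSO and TSA alone. E6R exceeded TSA by 2.31 (SE 0.689, edgeR adjusted p = 0.0312). The value was 2.73 without TSA replicate 1, 1.98 without TSA replicate 2 and 0.92 without E6R replicate 2. The call was lost in each of these fits, which leave 1 library in a group, and the value fell most without E6R replicate 2. For E6R against DMSO the value was 0.81 (95% interval -0.72 to 2.34).

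DBH (ENSG00000123454; chr9:133635348-133659344, plus strand, protein coding), the noradrenaline-forming enzyme, showed the same shape. DMSO libraries held 194 and 724 CPM, TSA libraries 162 and 157 CPM, and E6R libraries 224 and 1145 CPM. The replicate 1 libraries of the 3 treatments therefore lay between 162 and 224 CPM, and the spread came from replicate 2 of DMSO and of E6R. TSA against DMSO gave -1.53 (SE 0.766), and edgeR's adjusted p of 0.166 missed the threshold; without DMSO replicate 2 the value was -0.36. It passed with no filter on low counts (9.91e-09), without E6R replicate 1 (edgeR adjusted p = 0.033) or 2 (0.0307), and with DMSO and TSA alone (0.0379). E6R against TSA gave 2.10 (SE 0.778, edgeR adjusted p = 0.0652), and 0.51 without E6R replicate 2. E6R against DMSO was 0.58 (95% interval -1.16 to 2.31). DBH overlaps DBH-AS1 on the other strand.

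CYB561 (ENSG00000008283; chr17:63432304-63446378, minus strand, protein coding), the vesicle electron carrier, was measured at 988 and 1367 CPM under DMSO, 37.2 and 30.04 under TSA, and 812 and 1843 under E6R. The TSA libraries were far below the other 4, and the DMSO libraries lay within the range of the E6R libraries. The TSA level was 35.0-fold lower than the DMSO level and 39.5-fold lower than the E6R level. Both differences passed in each of the 21 alternatives; without E6R replicate 2 the E6R against TSA difference was 4.61 on the log2 scale in place of 5.30. E6R against DMSO gave 0.17 (95% interval -0.69 to 1.03). GCH1 (ENSG00000131979; chr14:54842008-54902852, minus strand, protein coding), which feeds the cofactor of TH, was not called in any comparison. Its levels were 15.3 and 61.2 CPM under DMSO, 46.1 and 42.1 under TSA, and 19.1 and 58.5 under E6R. Both TSA libraries lay inside the range of the DMSO and of the E6R libraries, and the log2 value for TSA against DMSO was 0.20 (95% interval -1.3 to 1.7).

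The promoters of the 2 called members that RefSeq's table holds are shown because these genes fell together under TSA while by different amounts. Each sequence is the 250 bases before a RefSeq start on GRCh38.p14, on the minus strand, 5′ to 3′, in a window that overlaps no GENCODE 29 exon; capitals mark matches, on either strand, to any of the motifs named after the sequences.
DDC, chr7:50561072-50561321: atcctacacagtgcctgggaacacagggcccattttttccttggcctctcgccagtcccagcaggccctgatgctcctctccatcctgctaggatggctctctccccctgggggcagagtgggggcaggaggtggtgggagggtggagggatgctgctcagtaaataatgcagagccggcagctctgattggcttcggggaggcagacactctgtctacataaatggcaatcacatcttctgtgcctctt
CYB561, chr17:63446640-63446889: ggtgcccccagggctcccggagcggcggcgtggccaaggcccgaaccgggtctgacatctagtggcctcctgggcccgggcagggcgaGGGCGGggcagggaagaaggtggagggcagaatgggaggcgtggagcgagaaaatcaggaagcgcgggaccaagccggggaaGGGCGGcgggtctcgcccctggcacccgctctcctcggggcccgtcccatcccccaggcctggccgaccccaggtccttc
The DDC window, which lies inside the gene, is 58.0% G and C with 3 CpG dinucleotides and holds none of the motifs. The CYB561 window is 73.6% G and C with 21 CpG dinucleotides, against medians of 58% and 11 over the table, and has 2 matches of GGGCGG, the GC box. That motif occurs in 42.6% of the 35116 windows of the same length in the table. Of the other motifs searched, the cAMP response element TGACGTCA was found in 1.65% of them, the AP-1 site TGANTCA in 6.57% and a paired homeodomain site in 0.33%. The E-box CANNTG was found in 61.8%, the TATA box TATAAA in 10.7% and the GATA site AGATAA in 9.17%. Each motif was counted on its own, overlaps included. The table has 2 entries for DDC and 4 for CYB561. A further CYB561 window that overlaps no annotated exon, chr17:63440268-63440517, is not shown and has 64% G and C, 6 CpG dinucleotides and 1 CANNTG match. The remaining windows overlap an exon of their own gene and are not shown. For DDC, chr7:50565406-50565655 has 42.4% G and C, 2 CpG dinucleotides and 2 CANNTG matches. For CYB561, chr17:63446307-63446556 has 80% G and C, 39 CpG dinucleotides, 2 CANNTG and 2 GGGCGG matches. Its window chr17:63440828-63441077 has 58% G and C, 7 CpG dinucleotides and 1 CANNTG match. A match is a description of letters and says nothing of binding.

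SLC6A2 (ENSG00000103546; chr16:55655604-55706192, plus strand, protein coding), the noradrenaline transporter, had the largest fitted fall of the 9 members. It went from 226 and 555 CPM under DMSO to 5.24 and 5.57 under TSA, and E6R libraries had 140 and 435. The TSA values rest on 69 and 64 UMIs of 14282282 and 13318200 in cells. The TSA libraries were apart from the other 4, and the E6R libraries overlapped the DMSO libraries. The log2 fold change of -6.17 (SE 0.693) for TSA against DMSO is a 72.1-fold lower level, with an edgeR adjusted p of 0.00135; without DMSO replicate 2 it was -5.46. E6R against TSA gave 5.73 (SE 0.68, edgeR adjusted p = 0.000924), 6.40 without E6R replicate 1 and 4.72 without E6R replicate 2. E6R against DMSO gave -0.44 (95% interval -1.69 to 0.81). Both calls on this gene passed in all 21 alternatives. Barcodes with under 300 genes are taken here to carry mostly free RNA, which was not tested. In them SLC6A2 stood at 13.0 and 9.62 CPM of plain UMI sums in the TSA libraries, above the 4.83 and 4.81 CPM in their cells. These levels alone do not tell its few UMIs in TSA cells apart from free RNA. Without cells whose barcode is in another library, TSA against DMSO gave -6.63.

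The vesicle loaders were sparse and went different ways. SLC18A1 (ENSG00000036565; chr8:20144855-20183206, minus strand, protein coding), the transporter VMAT1, was at 9.14 and 6.89 CPM under DMSO, 2.05 and 1.13 under TSA, and 16.2 and 28.9 under E6R. No 2 groups overlapped, with TSA lowest and E6R highest, and the TSA values rest on 27 and 13 UMIs. TSA against DMSO gave -2.31 (SE 0.462, edgeR adjusted p = 0.00923), and the call was lost without TSA replicate 2 (-1.92, adjusted p = 0.0834). E6R against TSA gave 3.81 (SE 0.463, edgeR adjusted p = 0.00099), a 14-fold difference that passed in all 21 alternatives. E6R against DMSO gave 1.5 (95% interval 0.53 to 2.47), which edgeR did not call (adjusted p = 0.207) and DESeq2 did (adjusted p = 0.0402). SLC18A2 (ENSG00000165646; chr10:117241073-117279430, plus strand, protein coding), the transporter VMAT2, was at 13.8 and 1.72 CPM under DMSO, 10.2 and 6.70 under TSA, and 15.2 and 4.52 under E6R. Each group spanned a range that overlapped the others, and no comparison called it; TSA against DMSO gave 0.13 (95% interval -1.85 to 2.12). SLC18A2 overlaps PDZD8 and antisense genes on the other strand.

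MAOA (ENSG00000189221; chrX:43654907-43746824, plus strand, protein coding), the oxidase, was the member whose TSA libraries lay above both DMSO libraries. It had 6.16 and 2.87 CPM under DMSO, 10.5 and 8.36 under TSA, and 14.2 and 11.3 under E6R. No 2 groups overlapped, though the DMSO values rest on 29 and 15 UMIs. TSA against DMSO gave 1.07 (SE 0.426, edgeR adjusted p = 0.094) and did not pass. Leaving out DMSO replicate 1 gave 1.75, leaving out DMSO replicate 2 gave 0.54, and the value was 0.34 with cells thinned to 1000 UMIs. E6R against DMSO gave 1.5 (SE 0.425), which edgeR did not call (adjusted p = 0.208) and DESeq2 did (adjusted p = 0.0459); without DMSO replicate 1 it was 2.28, and with thinned cells 0.86. E6R and TSA differed by 0.43 (95% interval -0.48 to 1.33).

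**Figure D2:**
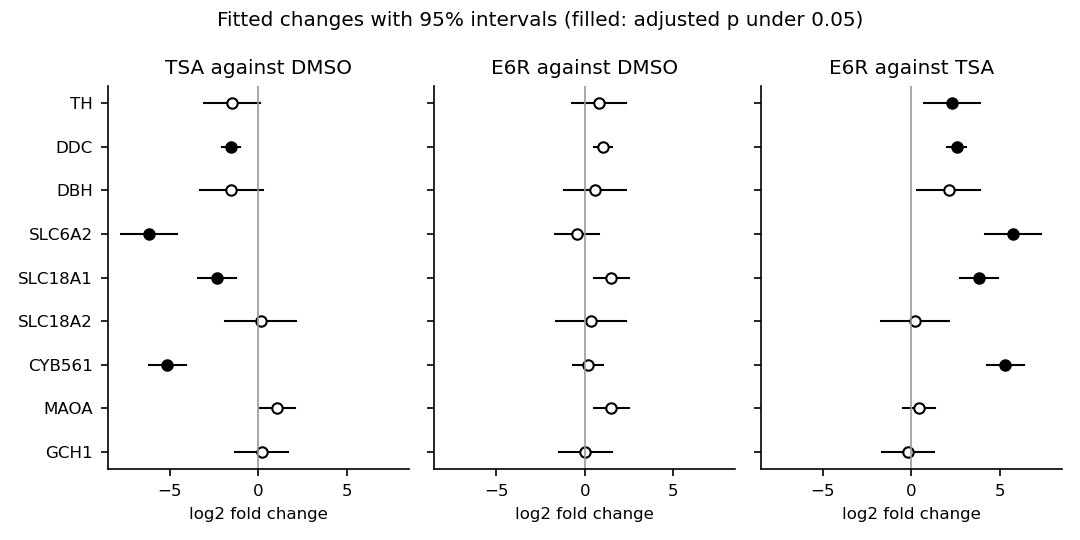
Fitted log2 fold changes of the 9 members with 95% intervals in the 3 comparisons; filled circles have an edgeR adjusted p under 0.05. TSA against DMSO has 4 filled circles left of 0, E6R against DMSO has 0, and E6R against TSA has 5 right of 0.

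Within DMSO and within E6R, several members differed between the 2 libraries by more than most genes did. Over the genes with a mean of at least 20 CPM, the 5th to 95th percentile of the ratio of replicate 2 to replicate 1 ran from 0.594 to 1.61 in DMSO, 0.653 to 1.32 in TSA and 0.546 to 1.67 in E6R. DBH had ratios of 3.74 in DMSO, 0.975 in TSA and 5.11 in E6R. GCH1 had 4.001, 0.912 and 3.07, TH 2.56, 0.599 and 4.29, and SLC6A2 2.46, 1.06 and 3.10, in the same order. These 4 members were above the 95th percentile in DMSO and in E6R and not in TSA. CYB561 and SLC18A1 were above it in E6R only, at 2.27 and 1.79. Below the 5th percentile lay TH and SLC18A1 in TSA, at 0.599 and 0.552, and MAOA in DMSO, at 0.466. SLC18A1, SLC18A2 and MAOA had means under 20 CPM, so the range was drawn from genes less sparse than these. DDC lay inside the range in all 3 groups, at 0.796, 0.846 and 0.819, and SLC18A2 went the other way in DMSO and E6R, at 0.125 and 0.297. The difference between the groups in these ratios was not tested.

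PNMT, which turns noradrenaline into adrenaline, had the widest ratios: 5 and 113 UMIs under DMSO, 10 and 9 under TSA, and 13 and 695 under E6R, or 1.06 and 21.6, 0.76 and 0.784, and 0.821 and 26.2 CPM. DRD2, a dopamine receptor named after its values were seen, had 11.5 and 68.5 CPM under DMSO, 13.0 and 13.7 under TSA, and 10.1 and 102 under E6R. In both genes the replicate 2 libraries of DMSO and E6R stood above the other 4. Markers of other cell types moved with the same libraries: the 4 endothelial markers summed to 49.7 and 4.59 CPM under DMSO, 11.6 and 4.70 under TSA, and 65.8 and 1.88 under E6R, with 1 marker at 0 in E6R replicate 2. The 8 mesenchymal markers, none at 0, summed to 1171 and 735 CPM under DMSO, 3312 and 2195 under TSA, and 1979 and 1268 under E6R. These sums were thus higher in replicate 1 of each treatment and highest under TSA. VIM made up most of each sum, at 977 and 696 CPM under DMSO, 2840 and 1760 under TSA, and 1652 and 1242 under E6R. FN1 was also higher in replicate 1 of each treatment and highest under TSA. Unlike the sum, it was lowest in E6R replicate 2, at 13.1 CPM against 19.3 in DMSO replicate 2. COL3A1, SNAI2 and YAP1 were highest in E6R replicate 1. COL1A2 was higher in replicate 2 of DMSO than in replicate 1. The part of either list, or of the origin of the replicates, in the results above was not tested.

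**Figure D3:**
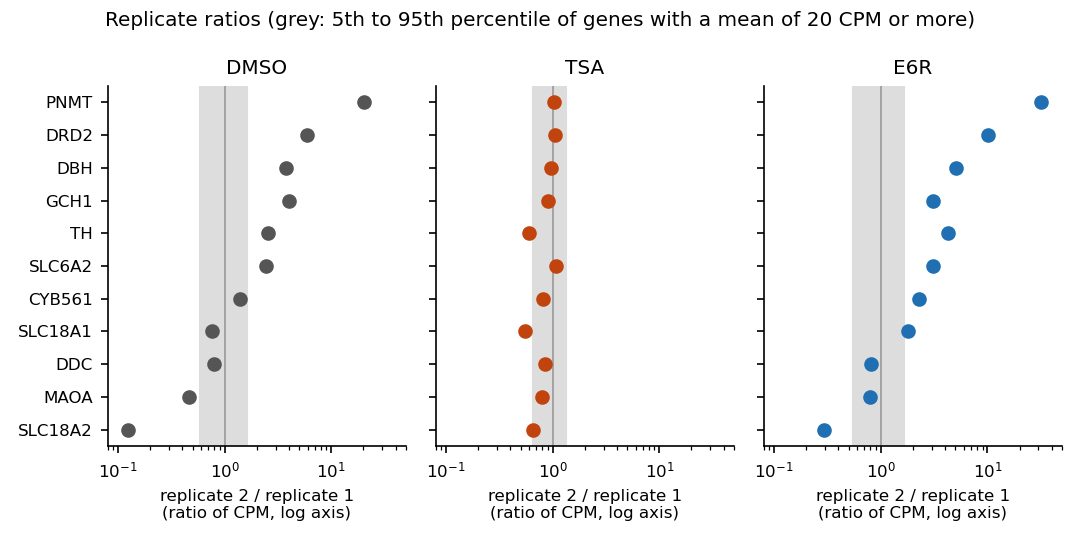
Ratio of CPM in replicate 2 to replicate 1 (log axis) for the 9 members, PNMT and DRD2 in each treatment; the grey band is the 5th to 95th percentile of genes with a mean of at least 20 CPM. DBH, TH, GCH1 and SLC6A2 lie right of the band under DMSO and E6R, with DBH at 3.74 and 5.11, and DDC lies inside it in all 3 panels.

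To compare cells at 1 depth, each cell with 1000 or more UMIs was thinned at random to 1000; this used 1187 and 1682 cells of the DMSO, 1852 and 2789 of the TSA, and 2199 and 2228 of the E6R libraries, and left out 2124, 1118 and 2410 shallower ones by treatment. CYB561 was found in 56.6% and 72.1% of DMSO cells, 2.75% and 2.19% of TSA cells, and 50.4% and 79.4% of E6R cells. SLC6A2 was found in 18.4% and 43.0% of DMSO cells, 0.486% (exact 95% interval 0.222 to 0.921) and 0.502% (0.275 to 0.841) of TSA cells, and 11.4% and 33.5% of E6R cells. For both genes the TSA libraries lay below all others, and the DMSO and E6R libraries overlapped. Before thinning, the TSA shares were 12.9% and 7.56% for CYB561 and 2.27% and 1.46% for SLC6A2. The exact two-sided permutation test on 2 libraries against 2 gave p = 0.333 for TSA against DMSO in each, the smallest that 6 assignments allow. The cell line offers no second cell type that should lack these genes, so no share of background cells was at hand; the level in small barcodes given for SLC6A2 stands in its place, and for CYB561 under TSA it was 54.5 and 42.0 CPM against 34.3 and 25.9 in cells.

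DDC was found in 29.3% and 24.0% of DMSO cells, 10.2% and 6.88% of TSA cells, and 45.02% and 37.8% of E6R cells, so the 3 groups kept the order of the summed levels. DBH was found in 15.5% and 50.6%, 13.2% and 11.6%, and 18.3% and 62.7%, in the same order of libraries. TH was found in 3.88% and 7.91% of DMSO cells, 1.78% and 0.932% of TSA cells, and 3.82% and 13.0% of E6R cells. The shares of DBH and TH repeat the spread between replicates of the sums: TSA libraries were lowest, and replicate 2 of E6R highest. Without thinning, DDC was found in 38.9% and 30.5%, 28.0% and 19.1%, and 67.1% and 51.5%. Unthinned DBH shares were 24.8% and 57.8%, 29.7% and 27.5%, and 38.6% and 74.1%. Unthinned TH shares were 5.64% and 10.8%, 6.89% and 3.89%, and 10.97% and 26.2%, so for both genes the TSA libraries lay below both DMSO libraries only at the common depth. GCH1 was found in 1.09% to 5.83% of cells over the 6 libraries, and SLC18A1, SLC18A2 and MAOA in at most 2.69%, 1.77% and 1.09%. SLC18A2 was found in 0 of 1682 thinned cells of DMSO replicate 2, which allows a share of up to 0.178% of cells with a UMI at that depth; without thinning it was in 0.192% of that library's cells. Intervals and this limit cover counting error only.

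The shares sat close to, and for the abundant members somewhat under, those that an even spread of the same UMIs over all cells would give. In E6R replicate 2 DBH was in 62.7% of cells against 67.9% for an even spread, and in DMSO replicate 1 CYB561 was in 56.6% against 64.6%. In TSA cells the SLC6A2 shares of 0.486% and 0.502% equal an even spread (0.485% and 0.501%), each positive cell having 1 UMI. For the sparse members, a subset of high cells and a low level in all cells cannot be told apart at 1000 UMIs per cell. All 3 synthesis enzymes, TH, DDC and DBH, were found together in 4 and 11 cells under DMSO, 5 and 1 under TSA, and 9 and 90 under E6R; the 90 cells are 4.04% of E6R replicate 2. None of the 3 was found in 58.6% and 33.8% of DMSO cells, 77.5% and 81.8% of TSA cells, and 43.7% and 21.8% of E6R cells. The TSA libraries thus had the largest shares of cells with no synthesis enzyme detected.

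**Figure D4:**
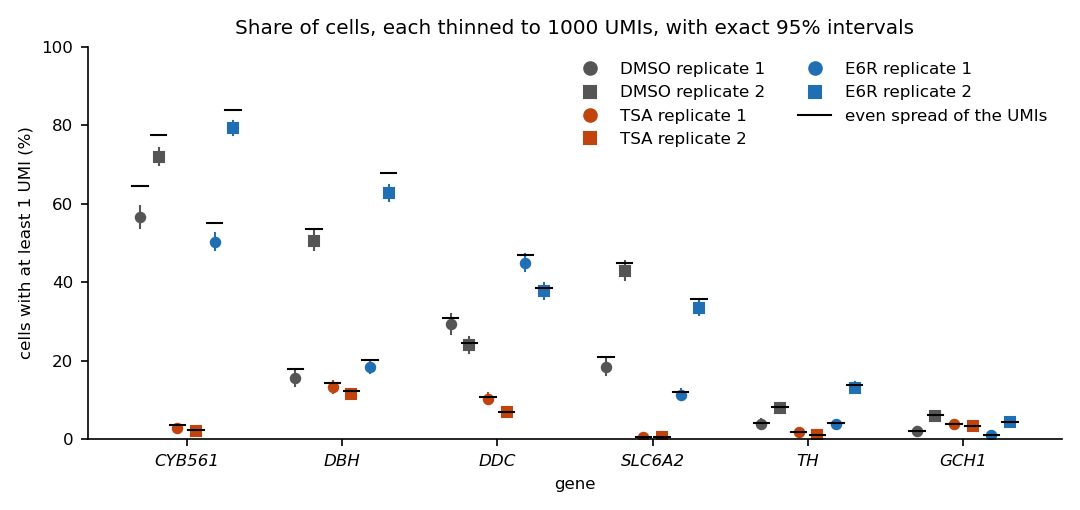
Share of cells (%) with at least 1 UMI of 6 members after thinning each cell to 1000 UMIs, by library, with exact 95% binomial intervals; short black lines mark the share expected if the UMIs were spread evenly. TSA shares are at most 2.75% for CYB561 and 0.502% for SLC6A2, while E6R replicate 2 reaches 79.4% for CYB561 and 62.7% for DBH.

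Detection of members in the same cells, at 1000 UMIs per cell, was compared library by library. For SLC6A2 in cells with and without CYB561, the exact 95% intervals were apart in 2 of 6 libraries and overlapped in 4. In DMSO replicate 1 the shares were 23.5% (20.4 to 26.9) with and 11.8% (9.18 to 15.0) without CYB561, while in DMSO replicate 2 they were 44.0% (41.2 to 46.8) and 40.4% (36.0 to 45.02), which overlap. For CYB561 in cells with and without DBH, the intervals were apart in 2 of 6 libraries. These were DMSO replicate 1, with 67.4% (60.1 to 74.1) and 54.6% (51.5 to 57.8), and E6R replicate 2, with 82.3% (80.1 to 84.2) and 74.5% (71.4 to 77.4). In the other replicates the shares were 74.0% and 70.0% for DMSO and 52.4% and 49.9% for E6R. For TH in cells with and without DBH, the intervals were apart in 1 of 6 libraries, TSA replicate 1, with 4.49% (2.26 to 7.89) and 1.37% (0.86 to 2.07). In none of these 3 pairs were the intervals apart in both replicates of a treatment. For DBH in cells with and without SLC6A2, they were apart in 3 of 6 libraries, among them both TSA libraries. The TSA shares were 55.6% (21.2 to 86.3) of 9 cells with and 13.0% (11.5 to 14.6) of cells without SLC6A2 in replicate 1. In replicate 2 they were 35.7% (12.8 to 64.9) of 14 cells and 11.4% (10.3 to 12.7). These few SLC6A2 UMIs were not told apart from free RNA by their level. Cells whose barcode is in another library were kept here. Without them, SLC6A2 in TSA against DMSO was -6.63 in place of -6.17, and their part in this overlap was not tested. DBH in cells with and without CYB561 had intervals apart in 3 of 6 libraries. Differences between libraries were not tested.

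The further genes of the pathway were taken from a list of 38, covering the cofactor, breakdown, related transporters, copper supply, receptors and kinases; 31 could be tested. Under TSA against DMSO, 4 rose and 6 fell in edgeR, with a median log2 fold change of -0.43. Of all genes tested, 16.2% were called higher and 13.5% lower, so the 10 of 31 called are near the 29.7% of all genes called in either direction. For the cofactor, SPR, which completes tetrahydrobiopterin synthesis, fell from 30.8 and 41.5 to 7.98 and 5.49 CPM (-2.42, SE 0.455, edgeR adjusted p = 0.00742). PCBD1 and QDPR, which recycle the cofactor, fell by 2.02 and 1.04 on the log2 scale, PCBD1 from 27.6 and 36.5 to 7.67 and 8.18 CPM. PTS, the step before SPR, had -0.63 and did not pass (edgeR adjusted p = 0.0687). The calls of SPR and QDPR were lost without TSA replicate 2 (edgeR adjusted p = 0.0752 and 0.124), and that of QDPR also without DMSO replicate 1 (0.0647).

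Among receptor and transport genes, ADRA2C, an inhibitory noradrenaline receptor, fell from 17.0 and 27.2 to 3.87 and 3.31 CPM under TSA (-2.62, SE 0.32, edgeR adjusted p = 0.00173). SLC29A4, a monoamine transporter of the plasma membrane, rose from 13.2 and 10.5 to 38.4 and 47.0 CPM (1.85, SE 0.262). PRKACA, a catalytic subunit of the kinase PKA, rose by 1.96, the copper pump ATP7A by 1.09 and CYB561D1, a relative of CYB561, by 0.91. The ATP7A call was lost in 3 and the CYB561D1 call in 6 alternatives, among them each TSA replicate left out. So within the cytochrome b561 family, CYB561 was called lower and CYB561D1 higher, and the family's other listed genes were not called. With total counts as the only scaling CYB561D1 was not called (0.61, edgeR adjusted p = 0.103). PNMT had a log2 value of -3.87 (SE 1.66) and did not pass (edgeR adjusted p = 0.114). MAOB and SLC6A3, the dopamine transporter, were under 1 CPM in every library and were not tested.

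With E6R against DMSO, edgeR called 0 of the 31 further genes; 9 had an unadjusted p under 0.05, as had 17.4% of all genes tested, and the median was 0.21. With E6R against TSA, 11 were higher and 4 lower, with a median of 0.61, where 18.7% of all genes tested were called higher and 19.5% lower. The higher ones included ADRA2C (3.31), PCBD1 (2.47), SPR (2.25), PRKACB (1.45), COMTD1 (1.37), PTS (1.17), QDPR (1.10) and YWHAZ (0.67), all log2 values. The lower ones included SLC29A4 (-2.12), PRKACA (-1.75) and CYB561D1 (-1.56). The calls of PTS, SPR and QDPR were lost without TSA replicate 2, with values of 1.02, 2.00 and 0.89 (edgeR adjusted p = 0.0633, 0.0664 and 0.0784), and those of COMTD1 and YWHAZ without either TSA replicate. Without E6R replicate 2 SPR had 1.46 and kept its call. COMTD1 had 0.47 without E6R replicate 2 (edgeR adjusted p = 0.295), and YWHAZ had 0.63 without E6R replicate 1 (0.079).

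**Figure D5:**
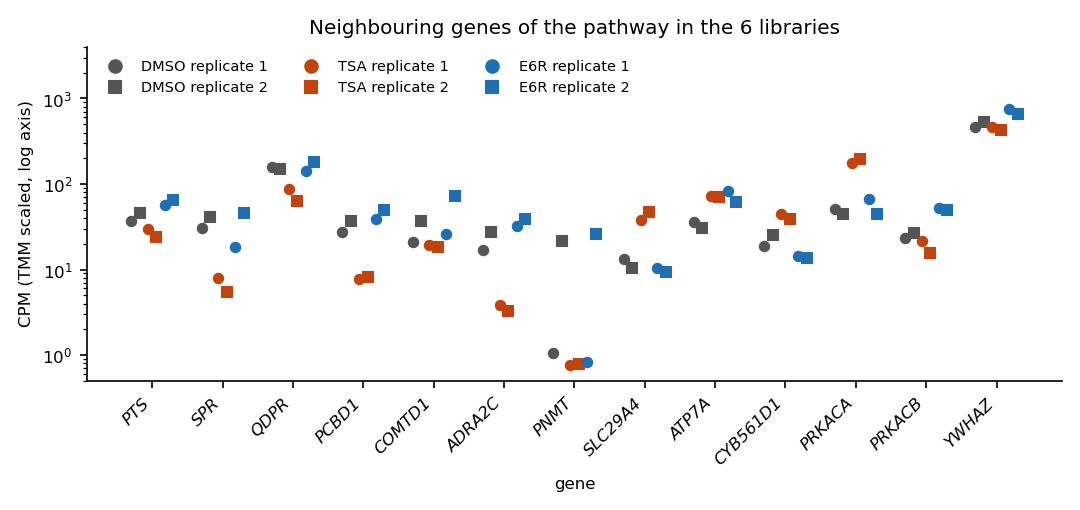
CPM (TMM scaled, log axis) of 13 neighbouring genes of the pathway in the 6 libraries; circles are replicate 1 and squares replicate 2. Both TSA libraries lie below the others for PCBD1 (7.67 and 8.18 CPM) and ADRA2C (3.87 and 3.31 CPM) and above them for PRKACA and SLC29A4.

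Across the 6 libraries, the genes with the pattern most like a member's were found from the root mean square difference of log2 CPM, each gene centred on its mean, among 7514 genes with a mean of at least 20 CPM. For DBH they were PRSS3 (0.259), MARCH4 (0.27) and RPL22L1 (0.277), with TH in the next place (0.29), where the median gene stood at 1.16. For SLC6A2 the nearest gene was CYB561 (0.427), followed by TFAP2B (0.747) and FAM163A (0.776), with a median of 2.71. For CYB561 they were TFAP2B (0.398), SLC6A2 (0.427) and PRRT4 (0.472), with a median of 2.46. Among these members, SLC6A2 and CYB561 thus shared a deep TSA drop, and TH was near DBH. Replicate 2 of DMSO and of E6R stood above the rest in DBH, TH, SLC6A2, CYB561 and GCH1. This did not hold for TFAP2B, at 108 CPM in DMSO replicate 2 and 119 in E6R replicate 1. Nor did it hold for PRRT4, at 105 and 92.8 CPM under DMSO and 107 and 106 under E6R.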

How the data were processed

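The deposited files held UMI counts per gene and barcode for 6 Seq-Well S3 libraries, whole numbers that the authors had not normalized; STARsolo 2.7.9a and GRCh38 are named in the submitters' processing notes. The annotation, the strand setting and the rule behind the barcode lists are not given in the sources used here. Coordinates come from GENCODE 29 on GRCh38. Groups came from the labelled treatment. The members and lists were chosen with earlier results of these data known. Since cells are not replicates, each library's cell counts were summed. These 6 sums were fitted together in edgeR 4.0.16 (R 4.3.3) with TMM, filterByExpr and group as the only term, and p-values were adjusted over 16763 genes. Standard errors came from the F statistic. Doublets were not called; an alternative dropped the 5% largest cells per library. DESeq2 1.42.0 was an alternative among 21, of which 2 were added after seeing the data. Shares of cells have exact Clopper-Pearson intervals, which for SLC6A2 under TSA and MAOA under DMSO are wider than the gap between replicates. Members were named regardless of result; of the 38 further genes, those with an adjusted p under 0.05 in any comparison and a mean of at least 20 CPM were named, with PNMT, MAOB, SLC6A3, PTS, SPR and QDPR in any case; 1 further gene of this rule is not reported here. For DBH, SLC6A2 and CYB561 the 3 most alike genes were named. Promoter sequences are RefSeq's, GRCh38.p14, matched by symbol for 5 of the 9 members.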

Additional observations from a re-analysis of the deposited data

How the results depend on the processing

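In TSA against DMSO, DDC, SLC6A2 and CYB561 passed in all 21 alternatives and SLC18A1 in 20; of the 189 member values, 171 kept direction and side of the threshold, 1 lost and 11 gained a call, and 6 changed sign. For E6R against DMSO these were 164, 0, 7 and 18, and for E6R against TSA 171, 3, 7 and 8. In E6R against DMSO the members called went from 0 to 4 with no filter on low counts (DDC, MAOA, SLC18A1 and TH) and to 3 with DESeq2; over all genes the calls went from 0 to 1095 and 424. Leaving out 1 library moved the calls of TSA against DMSO over all genes from 4975 to between 1416 and 6028, and those of E6R against TSA from 6408 to between 2628 and 6385. Total counts as the only scaling moved the median log2 value of all genes in TSA against DMSO from -0.01 to -0.32. All other sign changes were in values that were not called, and where their cause is not in the construction the cause was not tested.

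SLC18A2 in TSA against DMSO gave -0.18 with total counts, -0.0013 with sums thinned to the shallowest library, and -0.78 to 2.33 leaving out 1 library. In E6R against DMSO it gave -0.13 with thinned cells and -0.66 to 2.65 leaving out 1 library. In E6R against TSA it gave -0.077 without the 5% of cells with most UMIs, -0.27 with thinned cells and -0.83 to 0.87 leaving out 1 library. GCH1 in TSA against DMSO gave -0.099 with total counts and -0.43 to 1.45 leaving out 1 library. In E6R against DMSO it gave -0.099 with total counts, -0.0011 at 300 genes per cell, -0.33 and -0.084 without the 5% and the 1% of cells with most UMIs, -0.57 with thinned cells, -0.053 with thinned sums, -0.021 with the compared groups alone, -0.14 without shared barcodes, and -0.97 to 1.38 leaving out 1 library. In E6R against TSA it gave 0.065 with no low-count filter, 1.1e-05 with total counts and -1.19 to 0.48 leaving out 1 library. In E6R against DMSO, leaving out 1 library gave -0.56 to 1.67 for TH, -0.995 to 1.85 for DBH, -1.44 to 0.38 for SLC6A2 and -0.50 to 0.76 for CYB561.

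Libraries with the same replicate number deviated together with correlations of 0.0519 (DMSO and TSA), 0.448 (DMSO and E6R) and 0.249 (TSA and E6R); with 2 numbers this does not show that the numbers pair the samples. With a replicate block, 5 members were called in TSA against DMSO (MAOA added, 1.11, edgeR adjusted p = 0.0381), 0 in E6R against DMSO and 6 in E6R against TSA (DBH added, 1.56, edgeR adjusted p = 0.0154), and SLC18A2 in E6R against TSA was -0.040. Over all genes the block gave 6047, 19 and 7567 calls. Shares of cells with a UMI rose with the depth to which cells were thinned. Depth limits SLC18A1, SLC18A2 and MAOA most, with as few as 9 UMIs in a library.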
